A study of Mus musculus with 32 samples.

Results

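Cathepsins are the main proteases of lysosomes, and the 9 cathepsin genes described here (Ctsa, Ctsb, Ctsc, Ctsd, Ctsf, Ctsh, Ctsl, Ctss and Ctsz) were taken by name from the 18588 genes of a log2 gene signal table of mouse microglia. All 9 were present in the table. The libraries came from female rTg4510 mice and WT littermates at 2, 4, 6 and 8 months of age. rTg4510 mice carry a human tau transgene with the P301L mutation under a tetracycline operon-responsive element and a second transgene, the tetracycline-controlled transactivator driven by the CaMKIIα promoter, which directs expression to forebrain neurons. WT littermates (strain label 129/FVB F1) carried neither transgene, and the labels name no treatment. Microglia were taken from forebrain with beads against CD11b, the product of Itgam, and each library was made from the pooled cells of 8 to 10 animals. Of 32 libraries, 4 per genotype and age, the study set aside 4 after RNA-seq quality control (replicate 3 of both genotypes at 4 months and replicate 4 of both at 8 months), so 28 were compared, with 4 libraries in each group at the ages of 2 and 6 months but 3 in each group at 4 and 8 months.

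Cathepsins are made as inactive proenzymes, carried to the lysosome largely by mannose 6-phosphate receptors, and activated there by loss of a propeptide. Most are cysteine proteases of the papain family, which cystatins inhibit, while cathepsin D is an aspartic protease and cathepsin A a serine carboxypeptidase. In microglia and other macrophages they degrade material taken up by phagocytosis and autophagy, and some prepare the invariant chain and antigens for presentation on MHC class II molecules.

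Values are log2 signals on a scale where the median gene of every library lay at 5.63. They are not per gene length, so levels of different genes are not compared as amounts of transcript. Where a gene is placed among others, as in the lowest 25% of genes, the place refers to this signal only. A gene was called a differentially expressed gene (DEG) where a linear model over all 28 libraries gave a false discovery rate (FDR, limma fit with unmoderated variance, Benjamini-Hochberg over all genes) under 0.05 and a change above 1.5 fold. The p-values set a difference of group means against the spread between libraries within groups, 1 estimate shared by all 8 groups. Each library is a pool of animals, so variation between single animals is not measured. Since each library is a bulk population, fewer cells of a type and less RNA per cell cannot be told apart. The number of reads behind each value is unknown, so no counting interval is given.

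The cells carried the defining markers of microglia: all 6 markers (Itgam, Csf1r, Cx3cr1, Aif1, P2ry12 and Tmem119) were measured and none lay in the lowest 25% of genes, with Cx3cr1 at mean log2 signals of 13.11 to 13.93 over the 8 groups. Neuron markers were near the bottom of the table, where 2 of 4 were measured and both lay in the lowest 25% of genes. Some markers moved with genotype. From 4 months on Tmem119 was called lower in rTg4510 (log2 fold change -0.74, -0.78 and -0.72) and Itgam at 6 months (-0.62). Aif1 alone of the 6 was higher at every age, by 0.141, 0.12, 0.355 and 0.395, and was not called. By the FDR alone 3, 3, 5 and 5 of the 6 passed at 2, 4, 6 and 8 months, beside 6.03%, 23.2%, 34.1% and 25.7% of all genes. The summed linear signal of the 6 microglia markers at 6 months was 0.224% to 0.246% of the total in rTg4510 against 0.312% to 0.375% in WT. Of these, Cx3cr1 had means of 13.33 in rTg4510 and 13.90 in WT at that age. Neutrophil markers were called lower in rTg4510 for 8 of 8 genes at 6 months and 6 of 8 at 8 months, and for none at 2 and 4 months. Their summed share at 6 months was 0.00186% to 0.00313% in rTg4510 and 0.00620% to 0.0159% in WT. Of 6 border macrophage markers, 1 (Lyve1) was called lower at 6 months and none at the other ages, with a summed share at 6 months of 0.0129% to 0.0184% in rTg4510 and 0.0176% to 0.0254% in WT. At 6 months 1 of 2 neuron markers (Snap25) was called lower, 1 of 4 astrocyte markers higher (Gfap) and 1 lower (Aqp4), 1 of 3 endothelial markers higher (Flt1) and 1 lower (Pecam1), and none of 5 B and T cell or 4 oligodendrocyte markers was called. At 4 months 2 of 5 B and T cell markers were called lower (Cd79a and Cd79b), at 8 months 1 astrocyte marker was higher and 2 were lower, and the endothelial calls were 1 higher and 1 lower at both of these ages. None of these lists had a call at 2 months. Beside the calls in all of these marker lists, 0.403%, 4.33%, 8.54% and 5.37% of all genes were called lower at 2, 4, 6 and 8 months. Those called higher were 1.58%, 9.47%, 11.3% and 10.5% of all genes, so a single call in a short list is near these shares. The part of these shifts in the cathepsin results was not tested.

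At 2 months 1 of the 9 cathepsins was a DEG, higher in rTg4510, beside 1.58% of all genes. At 4 months 7 of 9 were higher, beside 9.47% of all genes, at 6 months 7 of 9, beside 11.3%, and at 8 months 7 of 9, beside 10.5%. None was called lower at any age, beside 0.403%, 4.33%, 8.54% and 5.37% of all genes. By the FDR alone, 6, 9, 9 and 8 of the 9 passed, beside 6.03%, 23.2%, 34.1% and 25.7% of all genes in either direction. The 7 were the same genes at each of the 3 later ages: Ctsa, Ctsb, Ctsd, Ctsh, Ctsl, Ctss and Ctsz. The median log2 fold change of the 9 genes was 0.29, 0.84, 0.94 and 0.89 at 2, 4, 6 and 8 months, while that of all genes was 0.01, -0.04, -0.04 and -0.01. Every rTg4510 library lay above every WT library of its age for 8, 9, 9 and 8 of the 9 genes, beside 7.49%, 19.1%, 18.2% and 21.2% of all genes. Ctsf was the gene with overlapping groups at 2 and 8 months. The 9 genes together held between 0.233% and 0.284% of all linear signal in WT libraries, and between 0.307% and 0.554% in rTg4510 libraries. Ctsd and Ctss, with the highest mean log2 signals of the 9 (13.45 and 12.54), weigh most in this sum.

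**Figure D1:**
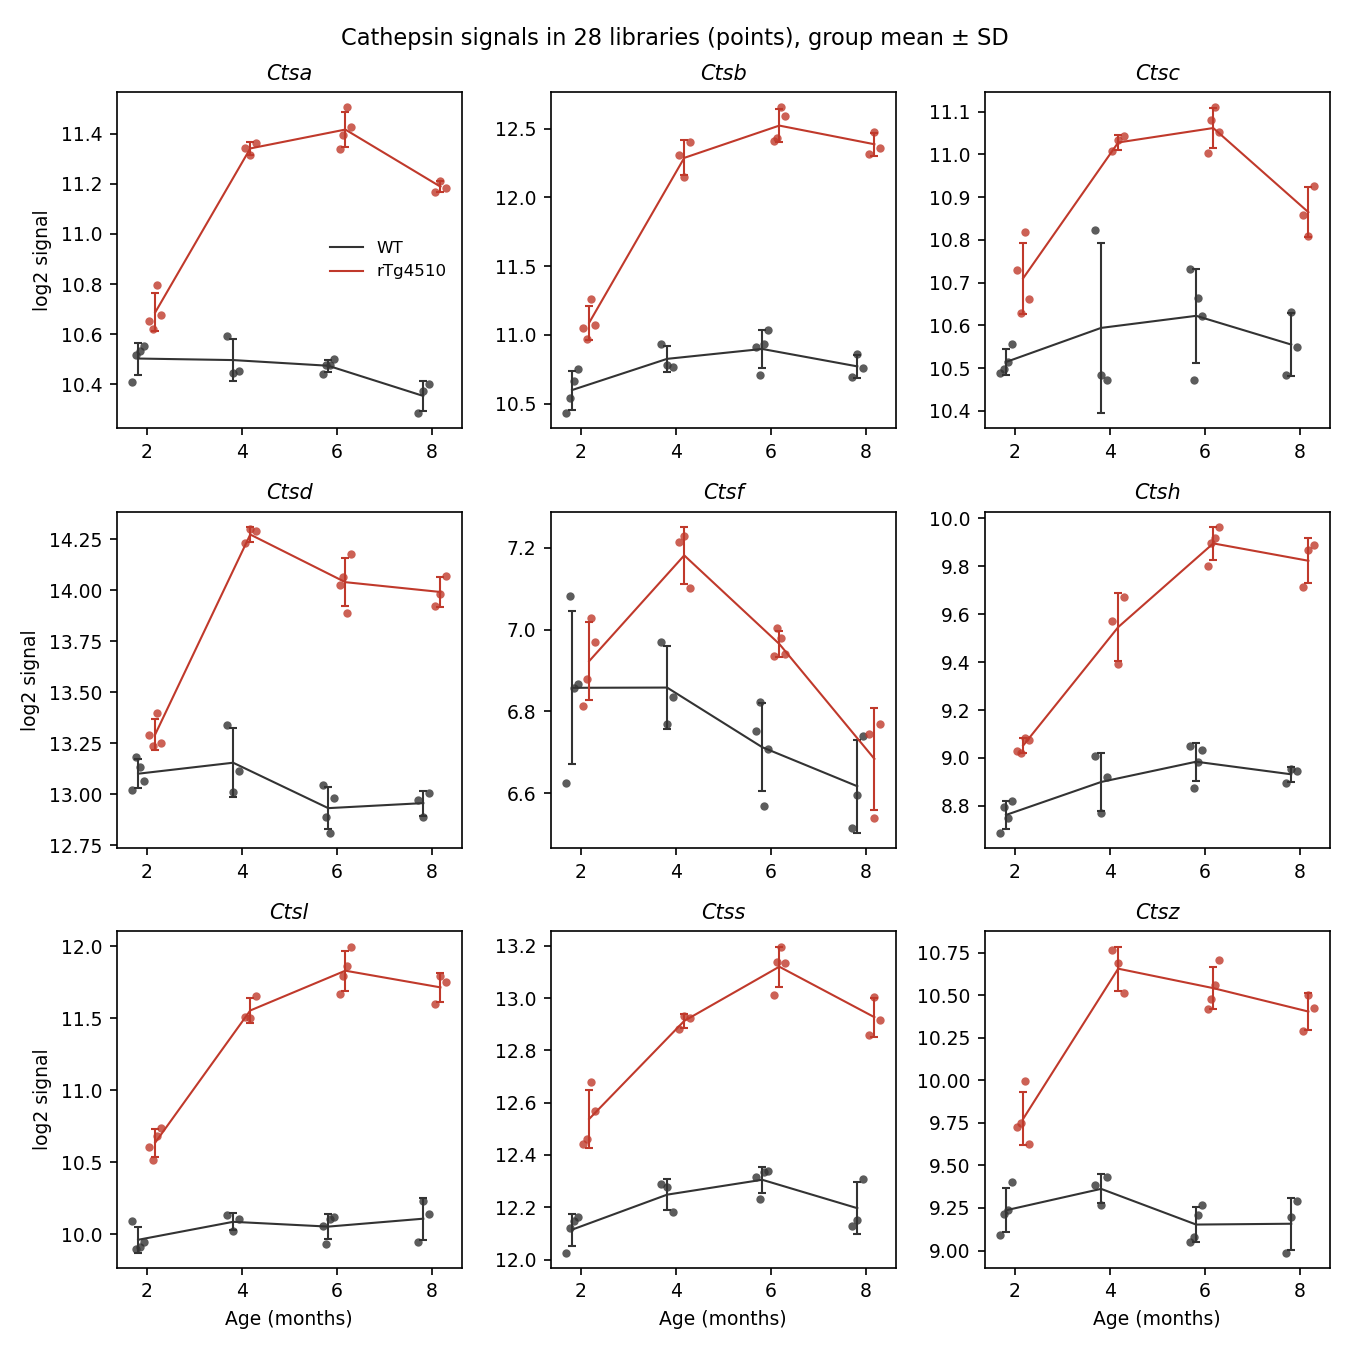
Log2 signal (y axis, a separate scale in each panel) of the 9 cathepsin genes against age in months, with 1 point per library, lines through group means and bars of 1 SD (n = 3 or 4 libraries). In rTg4510 (red) 8 genes stood above WT (black) at every age, the rTg4510 mean of each of the 9 genes rose most between 2 and 4 months, and the Ctsf groups overlapped at 8 months.

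The background share depends on the signal of the genes. All of the cathepsins except Ctsf had mean log2 signals between 9.23 and 13.45, in a range of the table where more genes were higher in rTg4510. Among the 2222 genes with a mean log2 signal of 8 to 14, a range chosen after the values were seen, 5.99%, 25.2%, 27.2% and 26.1% were called higher at 2, 4, 6 and 8 months. The upper end of the signal distribution was itself higher in rTg4510, with a 99th percentile at 6 months of 12.41 to 12.55 in rTg4510 libraries and 11.70 to 11.94 in WT libraries. When all libraries were forced to 1 distribution by quantile normalization, the DEGs among the 9 genes, all higher in rTg4510, numbered 0 at 2 months, 4 at 4 months, 5 at 6 months and 5 at 8 months, beside 1.15%, 8.84%, 10.7% and 10.4% of all genes called higher under the same normalization. Ctsb, Ctsd, Ctsl and Ctsz remained called at 4, 6 and 8 months, while Ctsa and Ctss were called at none of these ages. Values under this second normalization are given with each gene, for the ages where they bear on its call.

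RefSeq windows at transcript starts were searched for CACGTG, the core shared by the lysosomal CLEAR motif that the transcription factor Tfeb binds and by other E-box factors. The windows, 250 bases before and 50 after a transcript start (GRCm38.p6), were at hand for 7 of the 9 genes, with 2 starts for Ctsa. Ctsb and Ctsh had no entry. CACGTG, which reads the same on both strands, was found for 4 of the 7 genes (Ctsa, Ctsd, Ctsf and Ctsl), and for 11.2% of the 11802 genes with such windows. The Ctsl window, 1 of the 2 Ctsa windows and part of the Ctsc window lie inside the annotated gene. The 250 bases before the start are given, with CACGTG in capitals, for Ctsd and Ctsf, which hold a match and whose windows end at the outermost start of the gene.
Ctsd, chr7:142387828-142388077, minus strand: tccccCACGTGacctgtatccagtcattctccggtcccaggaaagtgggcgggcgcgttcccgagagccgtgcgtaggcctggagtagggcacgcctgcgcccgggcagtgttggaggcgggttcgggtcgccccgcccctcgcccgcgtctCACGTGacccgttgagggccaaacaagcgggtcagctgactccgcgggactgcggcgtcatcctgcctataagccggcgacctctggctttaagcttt
Ctsf, chr19:4854915-4855164, plus strand: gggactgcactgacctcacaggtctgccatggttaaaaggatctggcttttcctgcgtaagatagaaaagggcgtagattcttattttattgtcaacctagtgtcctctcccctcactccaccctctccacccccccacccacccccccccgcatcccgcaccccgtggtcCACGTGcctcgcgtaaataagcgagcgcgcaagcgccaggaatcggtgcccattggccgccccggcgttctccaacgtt

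The Ctsd window held 2 matches, beginning 245 and 98 bases before the start. The Ctsa window, at a start that lies inside the annotated gene, held 1 match 12 bases before the start and another 5 bases after it, and the other Ctsa start held none. Single matches lay 79 bases before the Ctsf start and 236 bases before the Ctsl start, the latter within the annotated gene. The longer form TCACGTG, which contains CACGTG, was present on either strand for Ctsa and Ctsd, against 6.54% of genes. AGGAAGT, a core bound by PU.1 and other ETS factors, was found on either strand for Ctsc and Ctss, against 10.9% of genes, and TGANTCA, an AP-1 motif, for 0 of 7, against 6.46% of genes. Of the genes with CACGTG, Ctsd and Ctsa were DEGs from 4 months on, Ctsl at every age and Ctsf at none. Ctss and Ctsz were DEGs from 4 months on without a match. After quantile normalization Ctsa and Ctss were called at no age. A match is a description of these letters and not a binding site, and its absence says only that the letters are not in this window.

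The annotated genes lie on several chromosomes (GRCm38.p6): Ctsa at chr2:164832872-164841032, Ctsz at chr2:174427494-174439039, Ctsc at chr7:88278024-88315861, Ctsd at chr7:142375910-142387827, Ctsb at chr14:63122462-63145923, Ctsh at chr9:90054267-90076095, Ctsl at chr13:64361890-64370772, Ctss at chr3:95526786-95556405 and Ctsf at chr19:4855165-4860918. All 9 are annotated as protein coding.

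The papain-family endopeptidases Ctsl, Ctsb, Ctss and Ctsf cut within polypeptide chains. Ctsl, which also processes the invariant chain in some cell types, had the largest fold change of the 9 genes at 6 months. At 2 months its log2 signal was 10.09, 9.90, 9.91 and 9.95 in the 4 WT libraries and 10.61, 10.52, 10.69 and 10.74 in the 4 rTg4510 libraries. At 4 months it was 10.14, 10.02 and 10.11 in WT and 11.51, 11.50 and 11.66 in rTg4510. WT libraries stayed within a narrow band, and the lowest rTg4510 library was above the highest WT library at both ages. At 6 months the WT libraries read 10.06, 9.93, 10.11 and 10.12 and the rTg4510 libraries 11.67, 11.80, 11.86 and 11.996. At 8 months the values were 9.95, 10.23 and 10.14 in WT and 11.60, 11.80 and 11.75 in rTg4510. No group pair overlapped, and the rTg4510 libraries of 4 to 8 months were all above those of 2 months. The log2 fold change of Ctsl was 0.67 ± 0.07 (SE, FDR 1.01e-05), 1.47 ± 0.09 (FDR 7.96e-11), 1.78 ± 0.07 (FDR 2.47e-13) and 1.61 ± 0.09 (FDR 1.91e-11) at 2, 4, 6 and 8 months, the 6-month value being 3.43 fold. It was the 1 DEG of the 9 at 2 months, at 1.60 fold, close to the threshold, and under quantile normalization that difference was 0.53, below 1.5 fold.

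Ctsb, an endopeptidase that also removes dipeptides from carboxyl ends, followed the same course. At 2 months its log2 signal was 10.43, 10.54, 10.67 and 10.76 in WT and 11.05, 10.97, 11.26 and 11.07 in rTg4510. At 6 months it was 10.92, 10.71, 10.93 and 11.04 in WT and 12.41, 12.43, 12.66 and 12.59 in rTg4510. The groups were apart at both ages, with a wider gap at 6 months. At 4 months WT libraries ranged from 10.77 to 10.93 and rTg4510 libraries from 12.15 to 12.40, and at 8 months from 10.70 to 10.86 and from 12.32 to 12.48. Ctsb was higher in rTg4510 by 1.46 ± 0.10, 1.62 ± 0.08 and 1.62 ± 0.10 at 4, 6 and 8 months (log2, SE; FDR 6.47e-10, 6.58e-12 and 1.44e-10). At 2 months the difference of 0.49 ± 0.08 passed the FDR threshold (8.13e-04) but not 1.5 fold. With quantile normalization the 6-month difference was 1.05 and stayed called.

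Ctss, a cysteine protease that keeps its activity at neutral pH and completes invariant chain breakdown in antigen-presenting cells, was already among the genes of high signal in WT. Its log2 signal at 6 months was 12.32, 12.23, 12.34 and 12.34 in WT and 13.01, 13.14, 13.19 and 13.14 in rTg4510. At 2 months WT libraries read 12.03 to 12.16 and rTg4510 libraries 12.44 to 12.68, at 4 months 12.18 to 12.29 and 12.88 to 12.93, and at 8 months 12.13 to 12.31 and 12.86 to 13.01. The groups did not overlap at any age. The log2 fold change was 0.42 ± 0.05, 0.67 ± 0.06, 0.82 ± 0.05 and 0.73 ± 0.06 (SE; FDR 4.50e-05, 5.22e-08, 1.43e-10 and 1.06e-08), past 1.5 fold at the 3 later ages. This call rested on the normalization. After quantile normalization the differences at 4, 6 and 8 months were 0.09, 0.15 and 0.11 (FDR 0.436, 0.0665 and 0.279).

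Ctsf, a cysteine protease whose loss causes a form of neuronal ceroid lipofuscinosis, changed least. Its log2 signal at 4 months was 6.97, 6.77 and 6.84 in WT and 7.21, 7.23 and 7.10 in rTg4510. At 8 months it was 6.52, 6.60 and 6.74 in WT and 6.74, 6.54 and 6.77 in rTg4510. The groups were apart at 4 months and overlapped at 8 months. Differences of 0.32 ± 0.09 at 4 months and 0.25 ± 0.08 at 6 months (log2, SE) passed the FDR threshold (0.0139 and 0.0188) without reaching 1.5 fold, and those of 0.07 at 2 months and 0.07 at 8 months did not pass (FDR 0.785 and 0.652). The value at 2 months turned to -0.01 without replicate 1 of WT at that age. Quantile normalization moved Ctsf little (0.05, 0.30, 0.22 and 0.05 at 2, 4, 6 and 8 months).

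The exopeptidases of the family trim chain ends. Ctsz, a carboxypeptidase that removes single residues, had log2 signals at 2 months of 9.09, 9.21, 9.24 and 9.41 in WT and 9.73, 9.75, 9.99 and 9.63 in rTg4510. At 4 months the values were 9.38, 9.27 and 9.44 in WT and 10.77, 10.69 and 10.51 in rTg4510. The groups were apart at both ages. At 6 months WT libraries ranged from 9.05 to 9.27 and rTg4510 libraries from 10.42 to 10.71, and at 8 months from 8.99 to 9.29 and from 10.29 to 10.499. Ctsz was higher in rTg4510 by 1.30 ± 0.10, 1.39 ± 0.09 and 1.25 ± 0.10 at 4, 6 and 8 months (log2, SE; FDR 7.80e-09, 1.31e-10 and 9.77e-09). At 2 months the difference of 0.54 ± 0.09 (FDR 5.84e-04) was under 1.5 fold, and it passed 1.5 fold (0.59) without replicate 4 of either genotype at that age. Under quantile normalization the differences were 0.44, 1.01, 1.09 and 0.94, still called from 4 months on.

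Ctsh, mainly an aminopeptidase, was the 1 gene of the 9 that passed the FDR threshold between 4 and 6 months within rTg4510, as given with the changes by age. Its log2 signal was 9.03, 9.02, 9.08 and 9.07 in rTg4510 at 2 months, 9.57, 9.39 and 9.67 at 4 months, 9.80, 9.90, 9.92 and 9.96 at 6 months and 9.72, 9.87 and 9.89 at 8 months. WT libraries ranged from 8.69 to 9.05 over all ages. Each rTg4510 group lay above the WT group of its age. The log2 fold change was 0.29 ± 0.06, 0.65 ± 0.07, 0.91 ± 0.06 and 0.89 ± 0.07 (SE; FDR 0.00285, 2.44e-07, 1.20e-10 and 3.03e-09). The 4-month value was close to 1.5 fold and fell below it without replicate 4 of rTg4510 or replicate 2 of WT at that age (lowest value 0.58) and under quantile normalization (0.47).

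Ctsc, a dipeptidyl peptidase that activates serine proteases of leukocyte granules, stayed under 1.5 fold at every age. At 6 months its log2 signal was 10.73, 10.47, 10.67 and 10.62 in WT and 11.002, 11.08, 11.11 and 11.05 in rTg4510. At 4 months WT libraries were spread from 10.47 to 10.82 and rTg4510 libraries lay between 11.01 and 11.04. The groups did not overlap at any age. The differences were 0.20 ± 0.06, 0.43 ± 0.07, 0.44 ± 0.06 and 0.31 ± 0.07 (log2, SE; FDR 0.0831, 1.38e-04, 1.31e-05 and 0.00321). Under quantile normalization they were near 0 at 6 months (0.01) and of the opposite sign at 8 months (-0.08, FDR 0.412).

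Ctsd, the aspartic endopeptidase, whose loss also causes neuronal ceroid lipofuscinosis, rose between 2 and 4 months. At 2 months its log2 signal was 13.02, 13.18, 13.13 and 13.06 in WT and 13.29, 13.23, 13.40 and 13.25 in rTg4510. At 4 months it was 13.34, 13.01 and 13.11 in WT and 14.23, 14.30 and 14.29 in rTg4510. The gap between genotypes at 2 months was smaller than the range within each group, and at 4 months it was larger. At 6 months WT libraries ranged from 12.81 to 13.05 and rTg4510 libraries from 13.89 to 14.18, and at 8 months from 12.89 to 13.01 and from 13.92 to 14.07. The difference was 0.19 ± 0.07 at 2 months, which did not pass (log2, SE; FDR 0.117), then 1.12 ± 0.08, 1.11 ± 0.07 and 1.04 ± 0.08 (FDR 1.30e-09, 7.34e-11 and 3.42e-09). Under quantile normalization the 6-month difference was 0.69 and stayed called.

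Ctsa, the serine carboxypeptidase that protects β-galactosidase and neuraminidase in a lysosomal complex, had the smallest spread among the called genes. At 6 months its log2 signal was 10.44, 10.48, 10.48 and 10.501 in WT and 11.34, 11.40, 11.51 and 11.43 in rTg4510. At 2 months WT libraries ranged from 10.41 to 10.55 and rTg4510 libraries from 10.62 to 10.80, at 4 months from 10.45 to 10.59 and from 11.32 to 11.36, and at 8 months from 10.29 to 10.40 and from 11.17 to 11.21. The groups were apart at all ages. The log2 fold change was 0.18 ± 0.04, 0.84 ± 0.05, 0.94 ± 0.04 and 0.83 ± 0.05 (SE; FDR 0.00768, 6.58e-11, 6.53e-13 and 6.65e-11). Under quantile normalization the 3 later values were 0.46, 0.48 and 0.43, with FDR still under the threshold (4.43e-09 at 6 months) but below 1.5 fold.

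**Figure D2:**
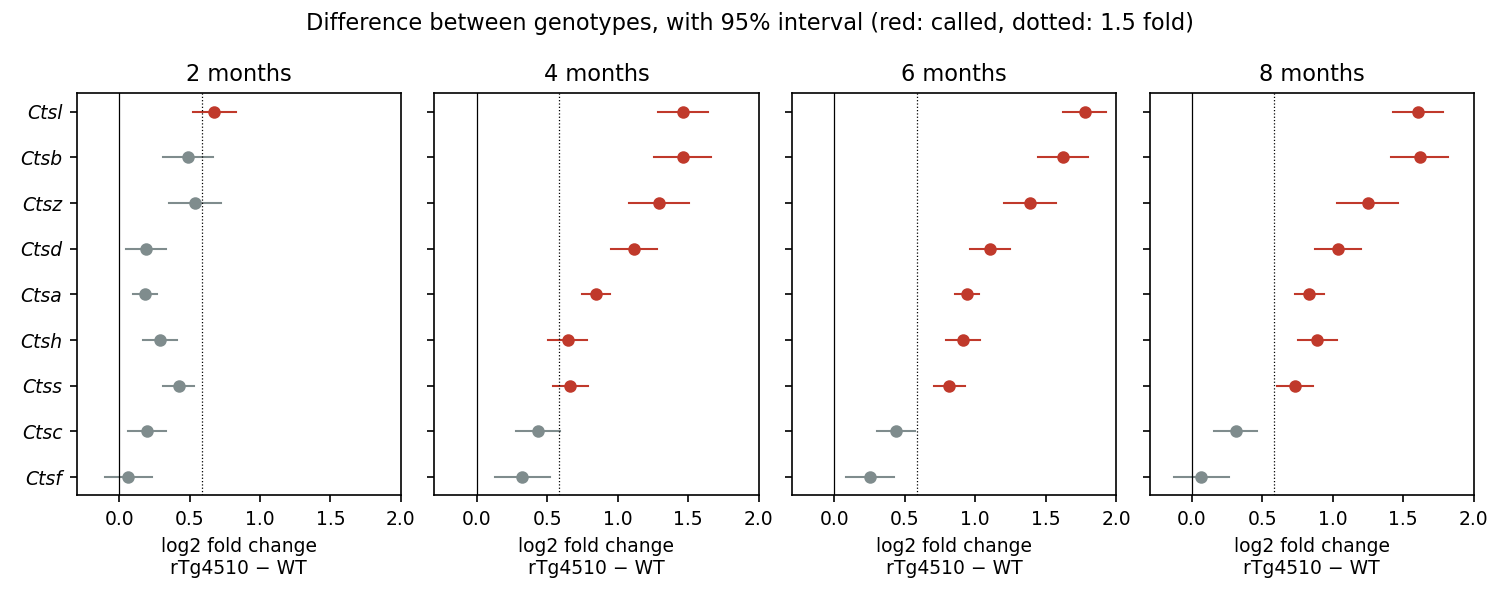
Log2 fold change of rTg4510 over WT (x axis) for the 9 cathepsin genes, 1 panel per age, with 95% intervals from the linear model, DEGs in red and a dotted line at 1.5 fold. At 2 months only Ctsl was called, at 0.67, and at 6 months 7 genes were called, from 0.82 for Ctss to 1.78 for Ctsl.

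**Figure D3:**
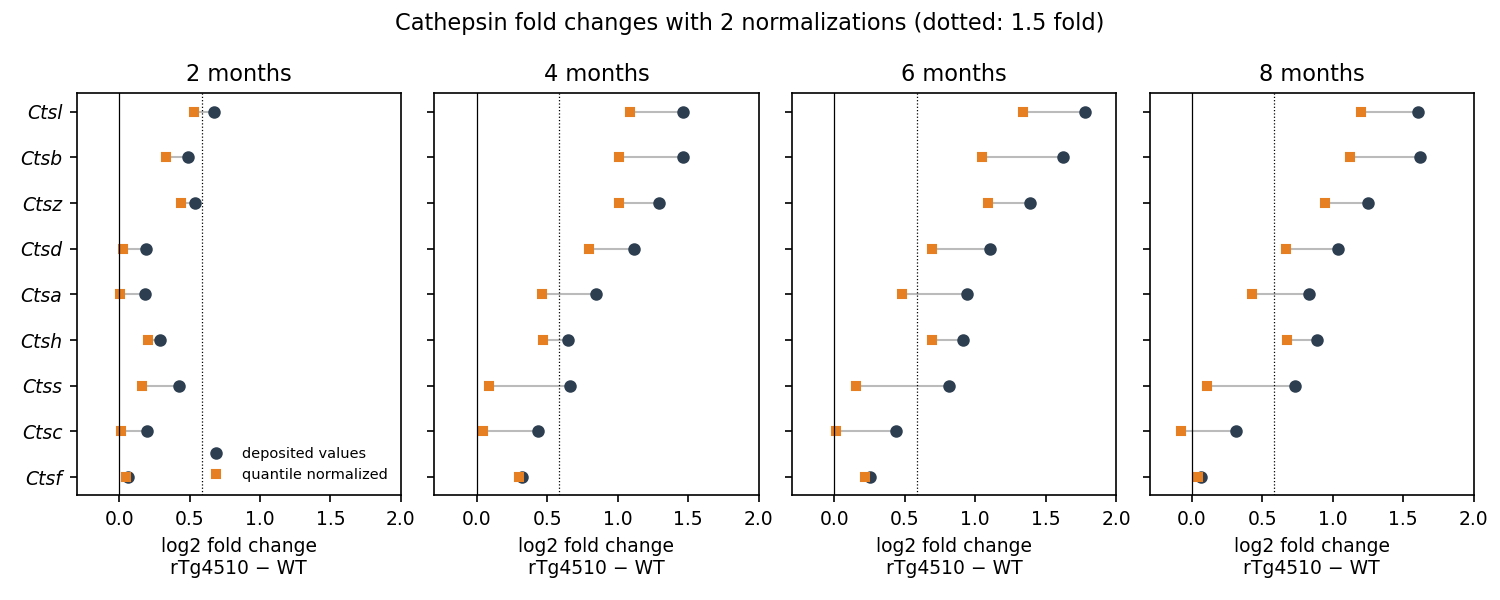
Log2 fold change of rTg4510 over WT (x axis) for the same genes with the deposited values (circles) and after quantile normalization of the 28 libraries (squares), 1 panel per age, with a dotted line at 1.5 fold. All squares lay to the left of the circles, by 0.66 for Ctss at 6 months, and those of Ctsb, Ctsd, Ctsl and Ctsz stayed to the right of the dotted line from 4 months on.

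Whether the genotype difference itself changed between neighbouring ages was tested with the interaction of genotype and age. Between 2 and 4 months the difference grew for 5 of the 9 genes, beside 3.77% of all genes: by 0.97 ± 0.13 for Ctsb (log2, SE; FDR 6.89e-05), 0.93 ± 0.10 for Ctsd (FDR 8.25e-06), 0.79 ± 0.11 for Ctsl (FDR 1.37e-04), 0.76 ± 0.14 for Ctsz (FDR 0.00141) and 0.66 ± 0.06 for Ctsa (FDR 1.17e-06). Ctsh passed the FDR threshold at 0.36 ± 0.09 (FDR 0.0161) without reaching 1.5 fold, so that 6 of 9 passed at any fold, beside 7.33% of all genes. Ctss (0.24), Ctsc (0.24) and Ctsf (0.26) did not pass. Under quantile normalization 2 genes were called (Ctsb and Ctsd), and with the 4 excluded libraries put back 2 were called (Ctsa and Ctsd). The share of all genes called in these 2 fits is not given here. Between 4 and 6 months no cathepsin was called (limma with unmoderated or moderated variance), beside 0.156% of all genes in either direction. In that step 2 of 9 had an unadjusted p under 0.05, a count with no share of all genes beside it. The highest change was 0.31 for Ctsl (FDR 0.405). Between 6 and 8 months none was called and none had an unadjusted p under 0.05, and 0% of all genes were called.

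Within rTg4510 the same 5 genes were higher at 4 than at 2 months, beside 4.03% of all genes. Ctsb was higher by 1.20 ± 0.09 (log2, SE; FDR 1.36e-08), Ctsd by 0.98 ± 0.07 (FDR 1.18e-08), Ctsl by 0.92 ± 0.08 (FDR 8.19e-08), Ctsz by 0.88 ± 0.10 (FDR 1.89e-06) and Ctsa by 0.65 ± 0.04 (FDR 3.50e-09). The remaining 4 passed the FDR threshold below 1.5 fold, from 0.26 for Ctsf (FDR 0.0490) to 0.49 for Ctsh (FDR 1.23e-05), so that all 9 passed at any fold, beside 15.2% of all genes. From 4 to 6 months no cathepsin was a DEG in rTg4510, beside 0.818% of all genes, while 6 of 9 had an unadjusted p under 0.05. Ctsh alone passed the FDR threshold, at 0.35 ± 0.06 (FDR 0.00559), beside 1.73% of all genes at any fold. From 6 to 8 months none was called, beside 0.00538% of all genes. All 9 estimates of that step were below 0, from -0.28 for Ctsf to -0.05 for Ctsd, and 4 of 9 had an unadjusted p under 0.05. In WT no cathepsin was called in any step, by the unmoderated or the moderated fit, beside 0.0484%, 0.00538% and 0% of all genes for the steps from 2 to 4, 4 to 6 and 6 to 8 months. Unadjusted p was under 0.05 for 3, 2 and 1 of the 9 in these steps, and the WT differences ran from -0.22 to 0.23 over all steps. The share of all genes with an unadjusted p under 0.05 is not given here for any step, so these counts have no background.

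Ordered by group mean, the 4 rTg4510 groups ranked above the 4 WT groups for 8 of the 9 genes. For these genes the lowest rTg4510 group was that of 2 months. Its libraries overlapped those of the next WT group, of another age, for Ctsb, Ctsc, Ctsd and Ctsh. They did not for Ctsa, Ctsl, Ctss and Ctsz. The highest group was rTg4510 at 6 months for Ctsa, Ctsb, Ctsc, Ctsh, Ctsl and Ctss, and rTg4510 at 4 months for Ctsd, Ctsf and Ctsz. Neighbours at the top often overlapped: for Ctsl the libraries of rTg4510 at 6 months (mean 11.83 ± 0.14, SD, n = 4) and 8 months (11.71 ± 0.10, n = 3) shared part of their range, as did those of 8 and 4 months (11.55 ± 0.09, n = 3), while those of 4 and 2 months (10.64 ± 0.10, n = 4) did not. For Ctsd the 4-month rTg4510 libraries (14.27 ± 0.04, n = 3) lay above all those of 6 months (14.04 ± 0.12, n = 4). For Ctss the 6-month rTg4510 libraries (13.12 ± 0.08, n = 4) lay above all those of 8 months (12.93 ± 0.07, n = 3). Ctsf broke the order, since rTg4510 at 8 months (6.68 ± 0.13, n = 3) ranked below WT at 2, 4 and 6 months.

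Over the 28 libraries, which share the 8 groups, Pearson r between pairs of the 9 genes ran from 0.279 to 0.983, with a median of 0.935 over 36 pairs. After subtraction of the group means r ran from -0.202 to 0.788, with a median of 0.424, and 35 of 36 pairs were above 0. These are descriptions over libraries that also share normalization. The genes outside the family whose signal was most like the mean of the 9 were Cadm1 (r = 0.991), Cd9 (0.990), Timp2 (0.988), Cd63 (0.988) and Pld3 (0.987). After subtraction of the group means these r were 0.416, 0.574, 0.387, 0.354 and 0.772, in the same order. Cd63 and Cd9 are tetraspanins, Timp2 is an inhibitor of metalloproteinases, and Pld3 is an endolysosomal exonuclease. The closest single gene was Hexa, a lysosomal hydrolase gene, for Ctsa (0.990) and Ctsd (0.979), Ctse for Ctsl (0.994), Ptprc for Ctsc (0.943), Gdpd3 for Ctsh (0.984), Ank for Ctsz (0.984) and Itgb5 for Ctsf (0.888). For Ctsb and Ctss it was the gene models Cd63-ps (0.990) and Gm5854 (0.983), the first named as a pseudogene, whose reads may be shared with other loci. After subtraction of the group means the r of these closest single genes ran from 0.529 to 0.698.

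Of 18 listed further cathepsins and cathepsin-like genes, 7 were measured and 3 of these lay in the lowest 25% of genes by signal. Ctse, an intracellular aspartic protease of endosomes, was called higher at all 4 ages. Its log2 signal at 2 months was 6.43, 6.12, 6.42 and 6.64 in WT and 7.96, 7.67, 8.25 and 8.04 in rTg4510. At 6 months it was 6.90, 6.44, 6.95 and 6.91 in WT and 10.85, 10.79, 10.67 and 10.87 in rTg4510. The lowest rTg4510 library at 2 months was above every WT library of any age. The log2 fold change was 1.58 ± 0.14, 3.69 ± 0.16, 4.00 ± 0.14 and 3.80 ± 0.16 (SE; FDR 6.34e-07, 6.99e-13, 1.67e-14 and 7.20e-13), or 2.99, 12.9, 15.9 and 13.95 fold, larger than that of any of the 9 at each age. The increase of the difference between 2 and 4 months was 2.11 ± 0.21 (FDR 1.78e-06). Ctla2b, related to cathepsin propeptides, was higher at 4, 6 and 8 months by 0.91, 1.18 and 1.13, and no other gene of the list was called at any age.

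Of 13 listed inhibitors, 8 were measured, 4 of them in the lowest 25% of genes by signal. Cst7 (cystatin F), a cystatin of the endolysosome that acts on cathepsin C among others, showed a larger difference at 4, 6 and 8 months than any other gene of these lists. Its log2 signal at 2 months was 4.49, 4.04, 4.25 and 3.77 in WT and 5.12, 5.60, 5.78 and 5.29 in rTg4510. At 4 months it was 4.45, 4.12 and 4.30 in WT and 10.003, 10.02 and 10.16 in rTg4510. WT libraries lay below the median gene at both ages, and rTg4510 libraries moved from about the median gene to far above it. The log2 fold change was 1.32 ± 0.21, 5.77 ± 0.24, 4.88 ± 0.21 and 4.59 ± 0.24 (SE; FDR 3.18e-04, 3.69e-13, 3.36e-13 and 1.32e-11). Cstb, the cytosolic cystatin B, was higher at 4, 6 and 8 months by 1.55, 1.66 and 1.503. Cst3 (cystatin C), the main secreted cystatin, was not called at any age, with differences of 0.12, 0.00, 0.06 and -0.10 and 95% intervals within -0.26 and 0.26. After quantile normalization its differences were -0.04, 0.28, 0.17 and 0.33, none of which passed the FDR threshold (lowest FDR 0.0971). Stfa2l1, a stefin of low signal, was lower at 6 months (-1.44, FDR 0.0127), a call lost after quantile normalization. Serpinb6a, named after its value was seen, was higher at 8 months (0.97, FDR 0.00215).

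**Figure D4:**
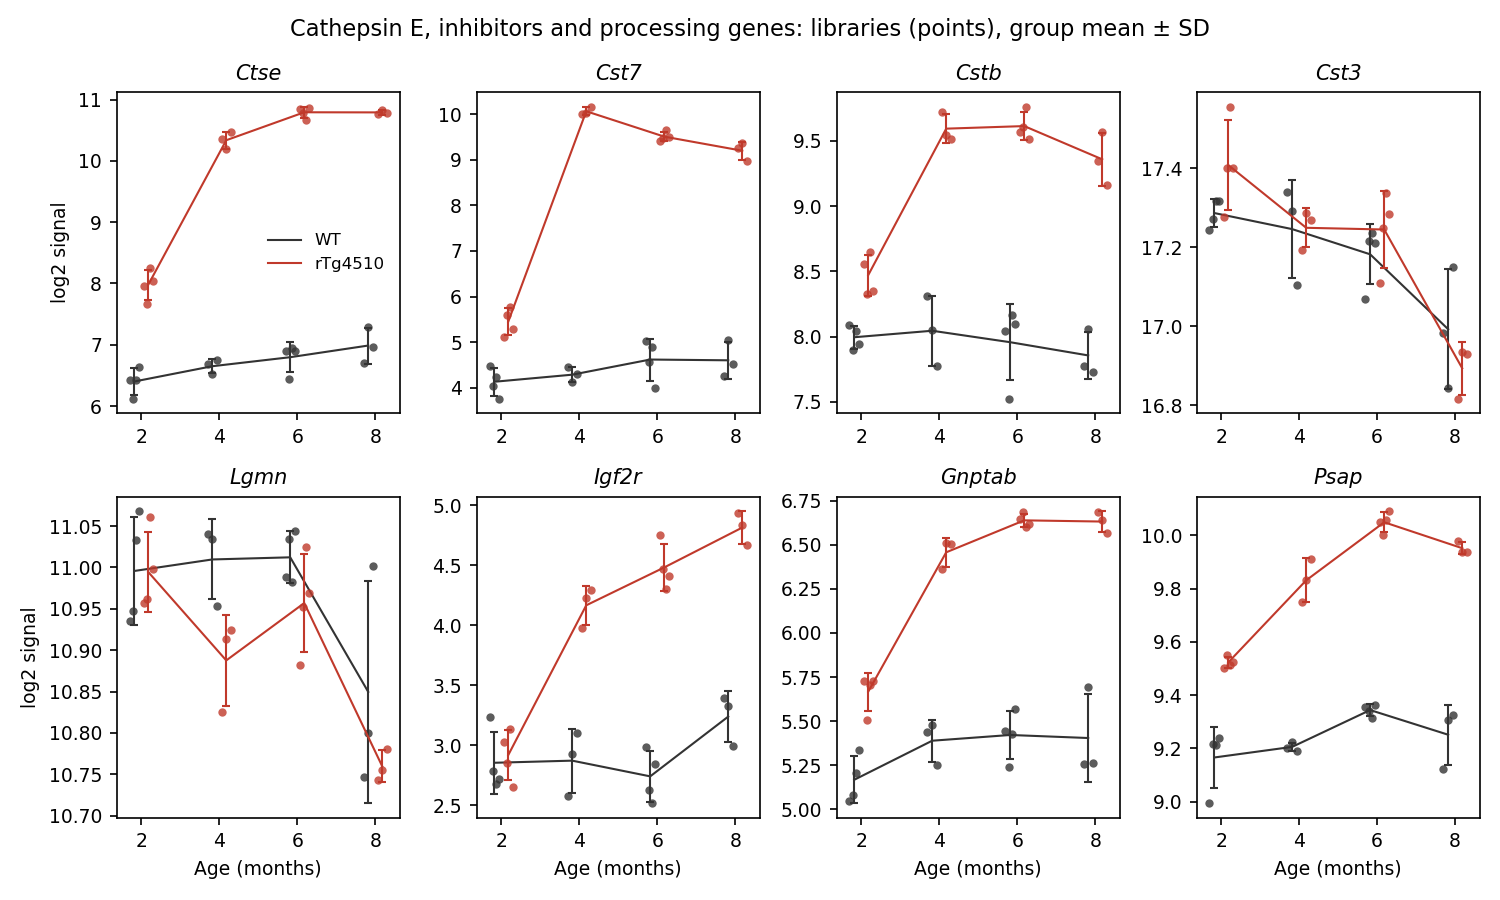
Log2 signal (y axis, a separate scale in each panel) against age in months for Ctse, the cystatin genes Cst7, Cstb and Cst3, the processing protease gene Lgmn, and Igf2r, Gnptab and Psap of lysosomal delivery, with 1 point per library, lines through group means and bars of 1 SD (n = 3 or 4). Ctse and Cst7 in rTg4510 (red) rose by 2.36 and 4.61 between 2 and 4 months, while the genotype means of Cst3 and Lgmn were at most 0.12 apart in these deposited values (Lgmn was lower by up to 0.51 on the log2 scale after quantile normalization).

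All 12 listed genes of cathepsin maturation and delivery were measured, and 0, 4, 4 and 5 of them were called higher at 2, 4, 6 and 8 months, none lower, beside 1.58%, 9.47%, 11.3% and 10.5% of all genes called higher. At any fold and in either direction 2, 7, 8 and 7 of the 12 passed the FDR threshold, beside 6.03%, 23.2%, 34.1% and 25.7% of all genes. The difference was above 0 for 7, 8, 7 and 8 of the 12, so not all rose. Sort1, named after its value was seen, had the lowest difference of the list at 4, 6 and 8 months (-0.24, -0.41 and -0.37). Its rTg4510 libraries lay below all WT libraries of their age, but it was not called. Igf2r, the cation-independent mannose 6-phosphate receptor, was higher by 1.30, 1.74 and 1.58 at the 3 later ages, from a signal in the lowest 25% of genes. Gnptab, the catalytic subunit of the enzyme that makes the mannose 6-phosphate tag, was higher by 1.07, 1.22 and 1.23. Gga2, a sorting adaptor also of low signal, was higher by 0.66, 0.80 and 0.86, and Psap, the precursor of the saposins, by 0.63, 0.71 and 0.70. The Psap calls were lost after quantile normalization, which left 0.43, 0.48 and 0.46. Gnptg, named after its value was seen, was called at 8 months only (0.64, FDR 6.03e-04). Lgmn, the asparaginyl endopeptidase that converts several cathepsins from the single-chain to the mature form, differed by -0.001, -0.12, -0.06 and -0.09 and was not called. After quantile normalization Lgmn was lower in rTg4510 by larger values, -0.51, -0.49 and -0.49 at 4, 6 and 8 months, which passed the FDR threshold (1.79e-06, 1.93e-07 and 2.39e-06) but not 1.5 fold.

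Of the partners of cathepsin A, Glb1 (β-galactosidase) was higher in rTg4510 by 1.39, 1.13 and 0.94 at 4, 6 and 8 months. Neu1 (neuraminidase), named with its list of 2 genes, was not called (0.32, 0.39 and 0.46, with FDR of 0.0242, 0.00121 and 0.00138 but below 1.5 fold). Granule serine proteases that cathepsin C activates were all of low signal, with 3 of 5 measured. Elane (-2.22), Gzma (-1.70) and Gzmb (-1.52) were called lower at 6 months, the age at which neutrophil markers were also lower, and the part of one in the other was not tested. Elane is itself on the neutrophil list, and its call was lost after quantile normalization. Of 6 class II genes, H2-DMa, which helps load peptides, was called higher at all ages (0.70, 0.89, 0.95 and 0.80). Cd74, the invariant chain that Ctss cleaves, was called at 8 months (0.71, FDR 0.0242), a result named after its value was seen and lost after quantile normalization (0.24).

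The 4 libraries that the study excluded were low for part of the family. Relative to the mean of the kept libraries of its group, the log2 signal of Ctsl differed by -1.63 and -1.77 in the excluded rTg4510 and WT libraries at 4 months and -1.40 and -1.39 in those at 8 months. Ctsz differed by -0.71, -1.39, -1.30 and -1.15 in the same order, and Ctss by -0.42, -1.21, -1.36 and -1.07. Each of these values lay below every kept library of its group. Ctsd and Ctsa instead lay within 0.29 of the kept means, between -0.13 and 0.29. Over all genes, 21.7% were at least 1 log2 unit below the kept mean in the excluded rTg4510 library at 4 months, and 7.46% to 7.98% in the other 3. Taken as single pairs with no replicate, the excluded libraries differed between genotypes for Ctsl by 1.61 at 4 months and 1.60 at 8 months. The kept libraries gave 1.47 and 1.61. For Ctsd the pairs differed by 1.30 and 1.23, beside 1.12 and 1.04. Other pairs at 4 months were further from the kept values: Ctsb 2.245 beside 1.461, Ctsz 1.978 beside 1.295 and Ctss 1.453 beside 0.665. Ctsf gave 0.865 beside 0.324, and Ctsh 0.177 beside 0.646. Ctsa (0.629 beside 0.844) and Ctsc (0.352 beside 0.434) were closer. At 8 months Ctss gave 0.435 beside 0.73. With all 32 libraries in the fit, Ctsl at 2 months kept its difference of 0.67 but not its call (FDR 0.794), with an SE of 0.395 in place of 0.073, and Ctss at 8 months (0.66, FDR 0.107) and Ctsh at 4 months (0.53) were not called.

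**Figure D5:**
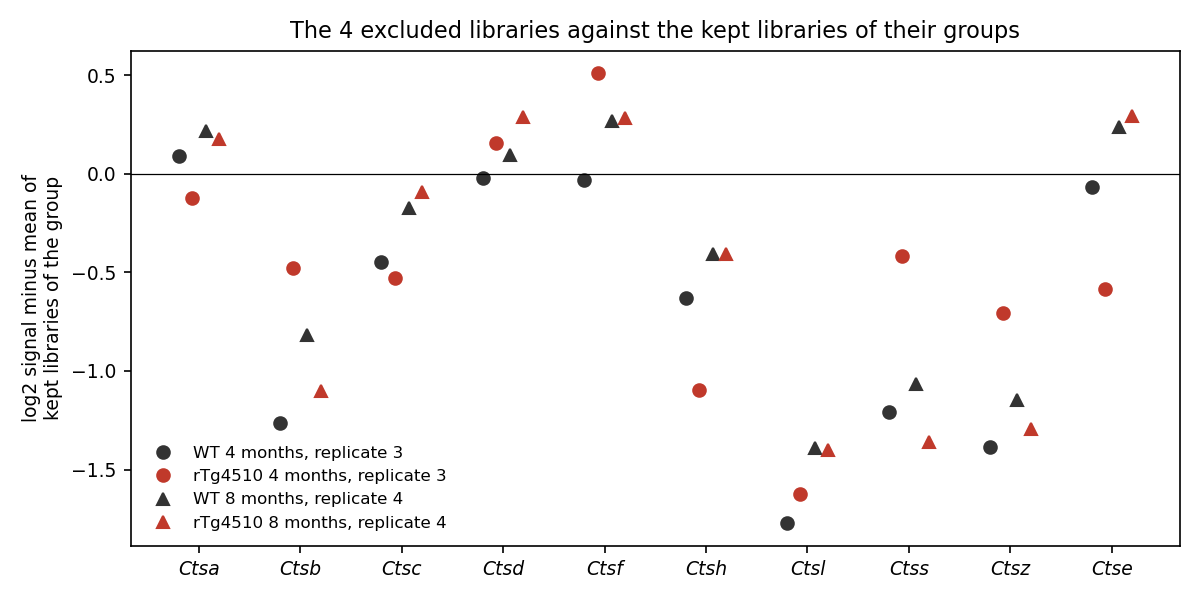
Log2 signal of each excluded library minus the mean of the kept libraries of its group (y axis) for the 9 cathepsin genes and Ctse, WT in black and rTg4510 in red, circles for 4 months and triangles for 8 months, 1 point per library. Ctsl was at least 1.39 below the kept mean in all 4, while Ctsa and Ctsd stayed within 0.29 of it.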

How the data were processed

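Microglial RNA was amplified with the Ovation RNA-Seq System V2 and sequenced as paired-end reads of 100 bases. The deposited values are log2 gene signals: the authors totalled the reads of each exon, discarded an exon that had under 10 counts in over 80% of samples, merged the remaining exons of a gene by robust regression, took log2 and scaled each library to a common median. The submitters' notes name build GRCm38, and the aligner, the annotation and the handling of reads that match several genes are not given in the sources used here. Read totals are not in the table, so depth is unknown and no counting error can be given. All value columns were used.

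Libraries were grouped by genotype and age from the labels. limma (version 3.58.1, R 4.3.3) was fitted to all 18588 genes in the 28 kept libraries with 8 group means, contrasts and unmoderated variance (20 residual degrees of freedom). The study's methods give a linear model of genotype and month with contrasts, and the choice of limma and of unmoderated variance was made here. FDR was adjusted over all genes within a contrast, two-sided. No pseudocount or filter was applied. Percentages of summed signal used linear values. For single genes an exact permutation test could not go below p = 0.0286 (4 against 4) or 0.1 (3 against 3) and was not used. Entrez identifiers were matched to RefSeq (GRCm38.p6) for 17828 of 18588 genes. Scripts were tested on simulated data.

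Alternatives were quantile and median of ratios normalization, all 32 libraries, leaving out each library in turn, moderated variance, a filter on low signal, only the 2 groups of an age, no fold threshold and a replicate block. The last needs the replicate numbers to pair libraries. Deviations from group means over all genes correlated between same-numbered libraries of an age with r between 0.065 and 0.167 in mice of 2 months, between -0.1 and 0.124 at 4 months, between 0.131 and 0.153 at 6 months and, at 8 months, between 0.15 and 0.291, so the numbers were taken to pair libraries at 6 and 8 months, on these values alone since the labels do not say what a number marks. The block fit nonetheless used the numbers at every age, and the main fit used no pairing. The 9 genes, the gene lists and the marker lists were chosen with earlier results of these data known. All 9 genes are named, and of each list the called genes with the largest change at 6 months (up to 4), with Lgmn, Cst3 and Cst7 in any case. A marker gene of the design is not reported here, and the sums over its list leave it out.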

Additional observations from a re-analysis of the deposited data

Results flagged for a closer look

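The genotype difference grew between 2 and 4 months for 5 of the 9 cathepsins, beside 3.77% of all genes. By the interaction of genotype with the step from 2 to 4 months, the log2 difference between rTg4510 and WT grew by 0.66 for Ctsa, 0.97 for Ctsb, 0.93 for Ctsd, 0.79 for Ctsl and 0.76 for Ctsz. The later steps gave no such call. For the step from 2 to 4 months, quantile normalization left only Ctsb and Ctsd called, and the fit of all 32 libraries only Ctsa and Ctsd. In 36 tests of the 4-library groups at 2 and 6 months for a library far from the other 3, none of the 9 genes had one.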

How the results depend on the processing

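Of 1260 recomputed values, 1243 kept their direction and side of the threshold. Most came from the 28 fits that each left out 1 library. Such a fit cannot move the log2 fold change at the ages of the other libraries. The total is therefore not a measure of robustness, and the settings are given singly. Quantile normalization left 0 cathepsin DEGs at 2 months and 4 at 4 months, beside 1.15% and 8.84% of all genes called higher. It left 2 genes for the interaction between 2 and 4 months, and a reversed Ctsc at 8 months (-0.076). With all 32 libraries, 0 DEGs were left at 2 months, 2 genes for that interaction and 3 (Ctsa, Ctsb and Ctsd) between 2 and 4 months within rTg4510. The share of all genes called in the 32-library fit, and for the interaction under quantile normalization, is not given here. Without a fold threshold 6 genes passed at 2 months, beside 6.03% of all genes. Within rTg4510, 9 passed between 2 and 4 months and 1 (Ctsh) between 4 and 6 months, beside 15.2% and 1.73% of all genes. Leaving out each library gave 1 to 2 DEGs at 2 months (2 without replicate 4 of either genotype, which added Ctsz), 6 to 7 at 4 months, and Ctsf at 2 months from -0.013 to 0.14, below 0 without replicate 1 of WT. The replicate block, fitted at every age, gave 1, 7, 7 and 7 DEGs in order of age, beside 376, 2553, 3712 and 2993 of all genes in either direction. It gave 5 genes for the interaction between 2 and 4 months, beside 798 of all genes, and changed no call. It could not be applied to changes with age within a genotype. Median of ratios normalization, moderated variance, the filter on low signal and the fit on only the 2 groups of an age also gave 1, 7, 7 and 7 DEGs. Over all genes, in either direction, median of ratios normalization called 336, 2576, 3701 and 2973 and moderated variance 383, 2649, 3801 and 3039. The filter on low signal called 331, 2113, 2870 and 2416, and the fit on only the 2 groups 244, 1561, 3166 and 1854. Apart from quantile normalization, which removes differences in the upper tail by construction, and the 32-library fit, which adds spread, the cause of a change was not tested. Depth is unknown, so the precision set by read number could not be given.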
